A study of Mus musculus with 9 samples.

Results

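The genes described here copy DNA during S phase or work beside the replication fork, and they were followed in dendritic cells (DCs) sorted from mouse spleen. The list holds 53 genes given by symbol, chosen by role after earlier results of these data, so their shared direction is not independent evidence. Each was read by the brightest array probe annotated with that symbol alone. Of these, 52 were measured among 22180 genes tested. The exception was Rfc4, a clamp loader subunit, which had only 1 probe, shared with another gene symbol, and it was left out. The members were divided by role into 16 genes of origin licensing and the replicative helicase, 15 of polymerases, clamp and ligation, 5 of nucleotide supply, 9 of fork protection and repair, and 8 of chromatin assembly and DNA methylation.

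Expression was measured on 9 single-colour arrays. The 3 knockout samples (C/EBPbeta-/-) came from naive mice carrying floxed Cebpb alleles and a CD11c-Cre-eGFP transgene, so that deletion depends on the promoter of Itgax, the CD11c gene. The 6 control samples (C/EBPbeta+/+) came from naive mice with intact Cebpb. The labels give the C57BL/6 background for every sample and no age. For the controls the design text names the Cre transgene alone, while the labels name both C57BL/6 and CD11c.Cre mice as sources without saying which controls carried Cre. Cells were sorted as CD11c+ and MHC class II+. C/EBPβ, a DNA-binding regulator of myeloid differentiation, is the factor deleted, and the design text asks what it does in the maturation and fate of DCs without infection. Values are log2 intensities, and a difference is knockout minus control, so 1 unit is a doubling and a negative value means lower in the knockout.

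Before a cell divides, the origin recognition complex with Cdc6 and Cdt1 loads the Mcm helicase onto DNA. In S phase, Cdc45 and the Gins complex join Mcm to form the active helicase, the primase-polymerase alpha complex lays down primers, and polymerases delta and epsilon extend them with Pcna as the sliding clamp. Most of these genes are targets of E2F factors and are transcribed mainly in dividing cells. DCs resident in the spleen are replaced from blood-borne precursors and also divide in place, so a population of sorted splenic DCs holds some cycling cells.

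The array medians lay between 5.49 and 5.56, and any pair of arrays correlated across probes at 0.987 to 0.996. Cebpb had 5.37, 5.60 and 5.42 in the knockouts, against a lowest, median and highest value of 6.64, 6.77 and 7.15 in the controls. The groups did not overlap, and the difference was -1.35 (SE 0.11, limma's adjusted p = 0.00074, exact two-sided permutation p = 0.012, the smallest this design allows). The DC marker Itgax, which encodes CD11c, was bright in every sample, with 12.1 to 12.2 in the knockouts, against 12.0 to 12.3 in the controls. None of the 11 measured DC markers passed the test, with 1 at an unadjusted p under 0.05. That was Clec4a4, at -0.30 (limma's adjusted p = 0.12), with all knockouts below all controls. Averaged over the 11, knockout replicates 1, 2 and 3 stood at -0.08, -0.02 and -0.13 from the control mean, against -0.08 to 0.09 for single controls. The labels do not state that each replicate was a separate animal. The p-values therefore cover only the variation among these 9 samples, which could be technical.

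Replication genes were lower in knockout DCs across all roles. Of 52 members, 51 had a negative difference, against 55.0% of all genes tested. By limma with Benjamini-Hochberg adjustment over all genes, 14 members fell and 0 rose, where 0.491% of all genes fell and 0.415% rose (0.906% in either direction). The median difference over the members was -0.54, beside -0.01 over all genes, and the members ranged from -0.80 for Timeless to 0.02 for Orc1. At an unadjusted p under 0.05 there were 48 members, against 14.3% of all genes, and 22 members had an adjusted p between 0.05 and 0.10. In 37 members all 3 knockouts lay below all 6 controls, which was so for 4.88% of all genes. In 0 members did all knockouts lie above all controls, against 2.52% of all genes. In bulk RNA, fewer cells in S phase and less transcript per cycling cell cannot be told apart.

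**Figure D1:**
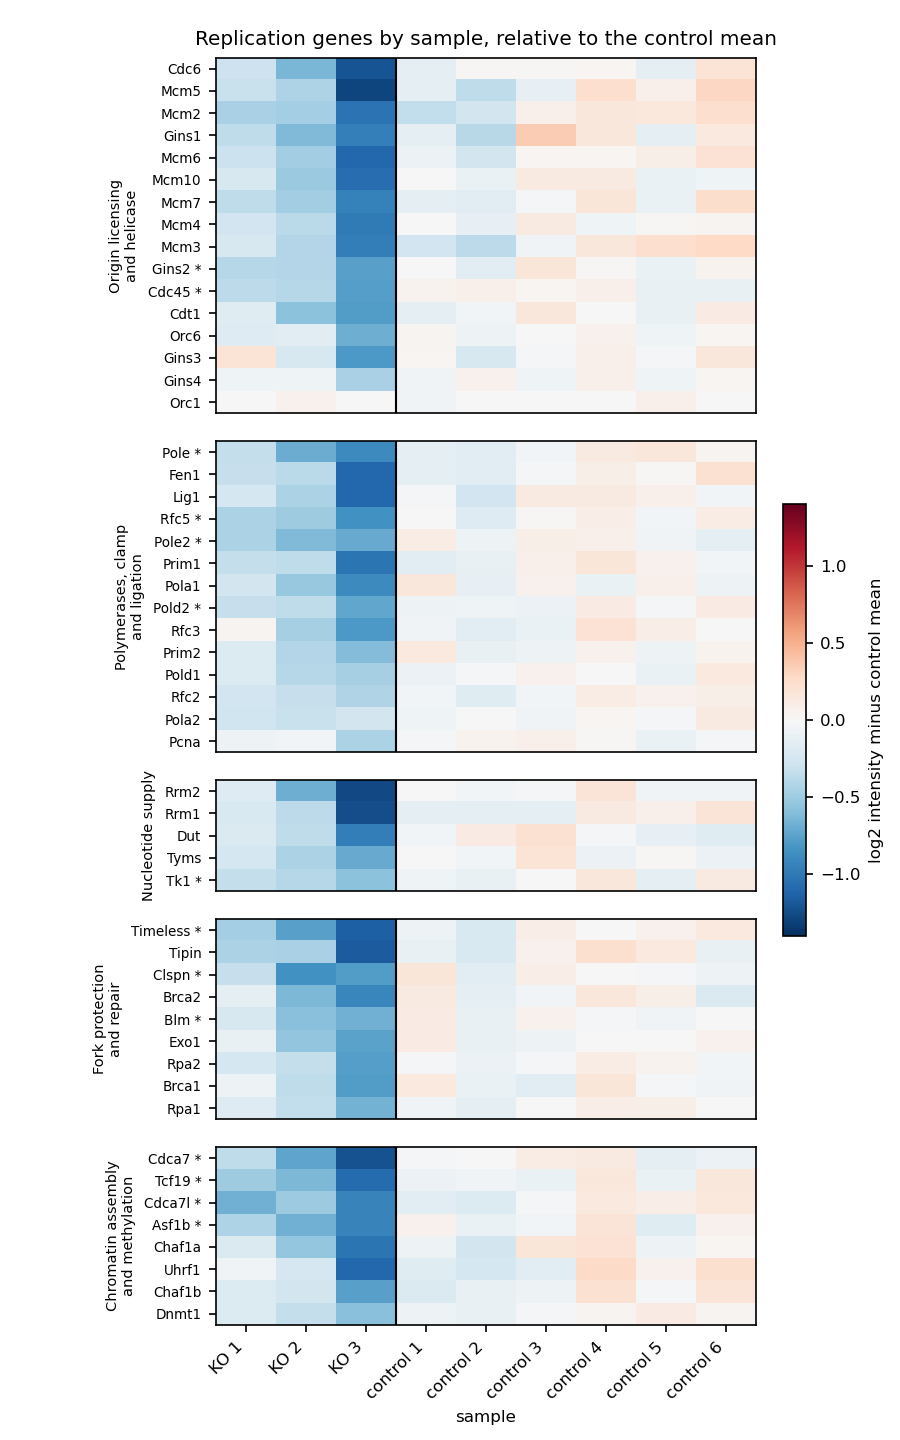
Log2 intensity of each member minus its control mean (colour), with genes down the page by role and samples across, knockouts left of the line and controls right. Stars mark the 14 members with an adjusted p under 0.05, and knockout replicate 3 was the lowest of the 9 samples in 49 of 52 members.

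The knockouts did not share 1 level. Averaged over the 52 members, knockout replicates 1, 2 and 3 stood at -0.26, -0.44 and -0.85 from the control mean, and single controls at -0.12 to 0.09. Replicate 3 was the lowest of all 9 samples in 49 members, as it was in 19.5% of all genes. Replicate 1 was the highest knockout in 47 members, a count whose share over all genes was not computed. Replicate 1 alone lay below every control in 37 members (17.8% of all genes), replicate 2 in 49 (19.1%) and replicate 3 in 51 (23.7%). The standard deviation (SD) between knockouts exceeded that between controls in 49 members, against 46.4% of all genes, with a median SD of 0.31 in the knockouts and 0.12 in the controls.

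Without knockout replicate 3, 6 members fell (0.216% of all genes fell in that fit) and the median was -0.36. The 6 were Pole2, Rfc5, Timeless, Asf1b, Cdca7l and Tcf19. Without knockout replicate 1, 32 members fell (1.15% of all genes) and the median was -0.67. The count was 1 without knockout replicate 2 (0.0316% of all genes), and among the fits that each left out a control it was 1 for replicate 4, 2 for replicates 1, 3, 5 and 6, and 10 for replicate 2. With arrays weighted by their quality 32 members fell (1.54% of all genes), and among genes above the median level 36 did (2.99%). None of the 14 passed in all 9 fits that left out a sample. Pole2 passed in 8 and Cdca7l in 7.

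Knockout samples also stood outside the control range in the means of some marker lists of other cells, in an order that varied between lists. Averaged over 10 B cell markers, knockout replicates 1, 2 and 3 stood 0.20, -0.16 and 0.83 from the control mean, against -0.07 to 0.15 for single controls. The mean of 7 plasmacytoid DC markers was 0.06, 0.20 and 0.65 in the knockouts, against -0.14 to 0.30 in the controls. For 10 markers of red pulp macrophages it was 0.24, 0.79 and 0.68 in the knockouts, against -0.65 to 0.62 in the controls. The mean of 10 monocyte markers was 0.26, 0.33 and 0.41 in the knockouts, above the -0.15 to 0.10 of the controls. The mean of 6 plasma cell markers was 0.51, 0.64 and 0.39, against -0.09 to 0.16 in the controls. Their median was lower, at 0.46, 0.25 and 0.20 in the knockouts. Single differences in this list ran from 0.04 for Xbp1 to 1.89 for Jchain, and its member Irf4 is also counted among the DC markers. Among these lists the monocyte marker Ace and the plasma cell markers Jchain and Prdm1 rose, and no other marker passed. In knockout replicate 2 the mean of the B cell markers, though not each marker, lay below every control mean, and the replication genes stood at -0.44. In control replicate 2 the macrophage markers stood at 0.62, the highest of the controls, and the replication genes at -0.12, the lowest of the controls. The other controls did not follow this order. In control replicate 3 the macrophage markers were lowest, at -0.65, and the replication genes stood at 0.02. In control replicate 4 the replication genes were highest, at 0.09, and the macrophage markers stood at -0.03. The part of these cells in the lower replication genes was not tested.

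Progenitor markers had means inside or close to the control range. The mean of 8 progenitor markers was -0.01, -0.07 and 0.05 in the knockouts, against -0.05 to 0.09 in the controls, and 0 of 8 passed the test, with 1 at an unadjusted p under 0.05. Averaged over 6 measured erythroid precursor markers, the knockouts stood at 0.04, 0.09 and 0.12, against -0.04 to 0.05 for single controls. Of these 6, 0 passed and 3 had an unadjusted p under 0.05, which lay on both sides of 0. The anion exchanger gene Slc4a1 differed by 0.50 (adjusted p = 0.11) and the Rh-associated glycoprotein gene Rhag by 0.23 (adjusted p = 0.23). The transferrin receptor gene Tfrc had 8.44, 8.35 and 8.03 in the knockouts, against 8.54 to 8.80 in the controls (difference -0.38, adjusted p = 0.095). The means of 8 T and NK cell markers and of 8 neutrophil markers, relative to the control mean, lay between 0.02 and 0.17 and between 0.03 and 0.19 in the knockouts, against -0.09 to 0.11 and -0.04 to 0.08 in the controls, and the T cell marker Il7r was the only one of these 16 that rose.

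**Figure D2:**
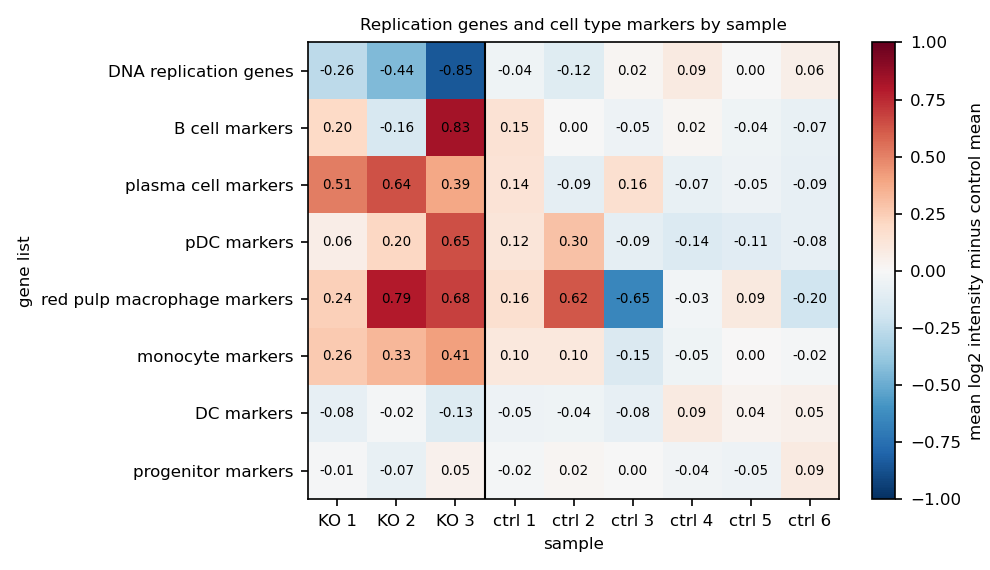
Mean log2 intensity of each gene list minus its control mean (number and colour), with lists down the page and samples across, knockouts (KO) left of the line and controls (ctrl) right. The replication genes stood at -0.26, -0.44 and -0.85 in the knockouts, while B cell markers reached 0.83 in knockout replicate 3 and progenitor markers stayed between -0.07 and 0.09 in all samples.

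Origin licensing and helicase genes were lower with the exception of Orc1. In this role 2 of 16 members fell, Cdc45 and Gins2, and 0 rose. Of all genes 0.491% fell. The median difference was -0.54, 15 had a negative difference (55.0% of all genes), and in 10 the knockouts lay below all controls (4.88% of all genes). Wherever 3 knockout values and 3 control values of a gene are given, they are knockout replicates 1, 2 and 3 and the lowest, median and highest control. Both genes that fell encode parts of the active helicase, while the loading factors Cdc6 and Cdt1 differed by -0.71 and -0.51 without passing. A contrast between the steps was not tested.

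Cdc45, which joins the Mcm ring when an origin fires, had 7.34, 7.31 and 6.93 in the knockouts, against a lowest, median and highest value of 7.59, 7.74 and 7.77 in the controls. Each knockout lay below each control, with a difference of -0.51 (SE 0.09, adjusted p = 0.041). Gins2, a subunit of the Gins complex, had 7.03, 7.02 and 6.67 in the knockouts, against 7.28, 7.43 and 7.60 in the controls (lowest, median and highest). Its difference was -0.52 (SE 0.10, adjusted p = 0.040), again without overlap. Among the other Gins subunits the difference was -0.64 for Gins1 (adjusted p = 0.099), -0.28 for Gins3 (95% confidence interval -0.66 to 0.10) and -0.19 for Gins4 (-0.39 to 0.01). In Gins3 knockout replicate 1, at 8.66, was the highest of all 9 samples.

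The 6 subunits of the Mcm helicase, Mcm2 to Mcm7, each had a negative difference, between -0.68 and -0.54, and 0 of 6 passed the test. Their adjusted p-values ran from 0.072 for Mcm7 to 0.21 for Mcm3, and all 6 had an unadjusted p under 0.05. Mcm5, with 9.93, 9.81 and 8.95 in the knockouts, against 9.89, 10.22 and 10.53 in the controls (lowest, median and highest), had a difference of -0.68 with an SE of 0.21. Knockout replicate 1 overlapped the controls, replicate 2 lay just below them, and replicate 3 lay almost 1 unit lower. The controls were uneven here too: in Mcm2, Mcm3 and Mcm5 the mean of control replicates 4 to 6 exceeded that of control replicates 1 to 3 by 0.36, 0.46 and 0.40.

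The loading factors were also low in the knockouts without passing. Cdc6, which loads Mcm at origins, had 7.62, 7.26 and 6.70 in the knockouts, against 7.77, 7.92 and 8.10 in the controls. The groups did not overlap, and the difference was -0.71 (SE 0.16, adjusted p = 0.071). Cdt1, its partner in loading, differed by -0.51 (adjusted p = 0.081), Mcm10, an activator of the loaded helicase, by -0.60 (adjusted p = 0.087) and Orc6, of the origin recognition complex, by -0.34 (adjusted p = 0.17). Orc1, an ATP-binding subunit of the same complex, had 5.50, 5.56 and 5.50 in the knockouts, against 5.45, 5.50 and 5.58 in the controls. This probe read below the median gene, at 5.93, in every sample, no detection call was used here, and its difference was 0.02 (95% confidence interval -0.10 to 0.13). Several arrays of both groups held the identical value 5.49678 for Orc1.

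Genes of the polymerases, the clamp and ligation were lower in all 14 measured cases, and 4 fell: Pole2, Rfc5, Pole and Pold2. The median difference was -0.52, and in 11 the knockouts lay below all controls (4.88% of all genes, of which 0.491% fell). Pole2 had the smallest p of any member.

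Pole2, the accessory subunit of leading-strand polymerase epsilon, had 7.81, 7.64 and 7.56 in the knockouts, against 8.12, 8.27 and 8.36 in the controls. No knockout reached the lowest control, and the difference was -0.59 (SE 0.08, adjusted p = 0.0096), or 1.50-fold lower. Pole, the catalytic subunit of the same enzyme, had 7.85, 7.48 and 7.29 in the knockouts, against 8.03, 8.18 and 8.34 in the controls, and its difference was -0.64 (SE 0.12, adjusted p = 0.039). A second, dimmer Pole probe, at 4.57 in the knockouts and 4.44 in the controls, differed by 0.13 (SE 0.10). With the mean of both probes the difference of Pole was -0.25 and its call was lost (adjusted p = 0.12 by limma, with a range of 0.012 to 0.43 over the alternatives run). The small histone-fold subunits Pole3 and Pole4, which are not members, differed by -0.26 and -0.10 and did not pass.

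Rfc5, of the loader that opens Pcna and places it on DNA, had 7.95, 7.89 and 7.54 in the knockouts, against 8.20, 8.39 and 8.49 in the controls (difference -0.59, SE 0.10, adjusted p = 0.028). The groups did not overlap, as was also the case for Rfc2 (-0.34, adjusted p = 0.057). Rfc3 (-0.41, adjusted p = 0.24) was at 7.17 in knockout replicate 1, inside the control range. Pold2, a subunit of lagging-strand polymerase delta, had 8.40, 8.36 and 7.99 in the knockouts, against 8.64, 8.68 and 8.84 in the controls. Its difference of -0.47 (SE 0.09, adjusted p = 0.0499) was just past the threshold. Its call was lost with centred arrays (limma's adjusted p = 0.062). The call was also lost when genes were read by the mean of their probes, though Pold2 has only 1 probe (adjusted p = 0.0506). Over the alternatives run the adjusted p ranged from 0.023 to 0.44. The catalytic subunit Pold1 differed by -0.35 (adjusted p = 0.061), just short of the threshold. Pold3 and Pold4, further subunits outside the list, differed by -0.07 and -0.02.

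Pcna itself had the smallest difference of this role. It had 11.16, 11.20 and 10.80 in the knockouts, against 11.15, 11.24 and 11.31 in the controls, so that 1 knockout lay below all controls. The difference was -0.19 (95% confidence interval -0.38 to 0.01, adjusted p = 0.37). The primase-polymerase alpha genes did not pass but did not overlap between groups either: Pola1 differed by -0.56, Pola2 by -0.29 (adjusted p = 0.052), Prim1 by -0.57 and Prim2 by -0.40. In Pola2 the 3 knockouts lay close together, with an SD of 0.03. Fen1, the flap endonuclease that trims Okazaki fragments, differed by -0.60 (adjusted p = 0.0995) and Lig1, the ligase that joins them, by -0.60 (adjusted p = 0.12). A second Fen1 probe differed by -0.28.

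Nucleotide supply genes were below every control in all 3 knockouts for each of the 5 members (4.88% of all genes), and 1 fell (0.491% of all genes). The median difference was -0.51. Tk1, the thymidine kinase of the salvage route, had 8.41, 8.35 and 8.18 in the knockouts, against 8.62, 8.72 and 8.91 in the controls (difference -0.43, SE 0.08, adjusted p = 0.046). It had the smallest difference of the role and also a small spread, with an SD of 0.12 in both groups. The call of Tk1 was lost with centred arrays (limma's adjusted p = 0.055).

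Rrm2, the regulated subunit of ribonucleotide reductase, had 8.59, 8.09 and 7.51 in the knockouts, against 8.72, 8.73 and 8.95 in the controls, a difference of -0.71 (SE 0.18, adjusted p = 0.094). Rrm1, the large subunit, had 9.67, 9.52 and 8.64 in the knockouts, against 9.75, 9.86 and 10.07 in the controls, a difference of -0.61 (SE 0.19, adjusted p = 0.17). In both genes the groups were separate but the knockouts were spread over about 1 unit. Tyms, thymidylate synthase, differed by -0.46 (adjusted p = 0.057), and Dut, which removes dUTP, by -0.51 (adjusted p = 0.15). Dimmer second probes of Rrm2 and Dut differed by -0.26 and 0.11.

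Fork protection and repair genes were lower in all 9 cases, and 3 fell: Timeless, Clspn and Blm. The median difference was -0.49, and in 6 all knockouts lay below all controls. Of all genes, 0.491% fell and 4.88% had all knockouts below all controls. Timeless, of the complex that stabilises paused forks, had 7.45, 7.18 and 6.79 in the knockouts, against 7.72, 7.96 and 8.07 in the controls. With a difference of -0.80 (SE 0.13, adjusted p = 0.026), or 1.74-fold lower, it had the largest size of any member. Its binding partner Tipin differed by -0.69 (SE 0.16, adjusted p = 0.073), with 7.03 in knockout replicate 3.

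Clspn, the adaptor through which stalled forks activate the checkpoint kinase Chek1, had 7.13, 6.61 and 6.67 in the knockouts, against 7.30, 7.44 and 7.63 in the controls (difference -0.65, SE 0.11, adjusted p = 0.034). It was one of the few members in which knockout replicate 3 was not the lowest sample. Blm, a helicase that unwinds recombination intermediates, had 7.61, 7.24 and 7.16 in the knockouts, against 7.72, 7.82 and 7.95 in the controls (difference -0.49, SE 0.09, adjusted p = 0.046). Rpa1, the large subunit of the single-strand binding complex, had 8.997, 8.83 and 8.51 in the knockouts, against 9.05, 9.18 and 9.26 in the controls, and its difference of -0.40 (adjusted p = 0.088) was the smallest of the role. A dimmer second Rpa1 probe differed by -0.14 (SE 0.09). Rpa2 differed by -0.45 (adjusted p = 0.071), the nuclease gene Exo1 by -0.47 (adjusted p = 0.094), and the recombination genes Brca1 and Brca2 by -0.40 (adjusted p = 0.20) and -0.56 (adjusted p = 0.10).

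Chromatin assembly and methylation genes had the lowest median of the roles, -0.63, and 4 of 8 fell: Cdca7l, Asf1b, Tcf19 and Cdca7. In 5 all knockouts lay below all controls. Of all genes, 0.491% fell and 4.88% had all knockouts below all controls. Whether the roles differed from each other was not tested.

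Cdca7 and Cdca7l are paralogues with a cysteine-rich domain, and Cdca7 acts with the remodeller Hells to keep DNA methylated. Cdca7 had 7.50, 7.12 and 6.64 in the knockouts, against 7.74, 7.85 and 7.98 in the controls (difference -0.77, SE 0.15, adjusted p = 0.046). Cdca7l had 8.17, 8.34 and 7.91 in the knockouts, against 8.66, 8.88 and 8.996 in the controls (difference -0.71, SE 0.11, adjusted p = 0.021). Both lay below every control in each knockout, but in Cdca7l knockout replicate 2 was the highest of the 3. Hells, outside the list, fell by 0.39 (adjusted p = 0.046).

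Asf1b, a histone chaperone that hands new H3 and H4 to assembly factors, had 8.64, 8.40 and 8.14 in the knockouts, against 8.91, 9.08 and 9.25 in the controls (difference -0.68, SE 0.11, adjusted p = 0.026). Tcf19, a chromatin-associated gene induced at the entry to S phase, had 8.43, 8.30 and 7.85 in the knockouts, against 8.84, 8.86 and 9.08 in the controls (difference -0.74, SE 0.12, adjusted p = 0.027). In both genes the highest knockout lay below the lowest control. The large and middle subunits of chromatin assembly factor 1, Chaf1a and Chaf1b, differed by -0.59 (adjusted p = 0.12) and -0.40 (adjusted p = 0.19). Dnmt1, the maintenance DNA methyltransferase, had 9.71, 9.57 and 9.32 in the knockouts, against 9.80, 9.91 and 10.01 in the controls (difference -0.37, SE 0.09, adjusted p = 0.080). Uhrf1, which brings Dnmt1 to newly copied DNA, overlapped between groups, with 9.04, 8.85 and 7.99 in the knockouts, against 8.84 to 9.36 in the controls (difference -0.46, adjusted p = 0.34).

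**Figure D3:**
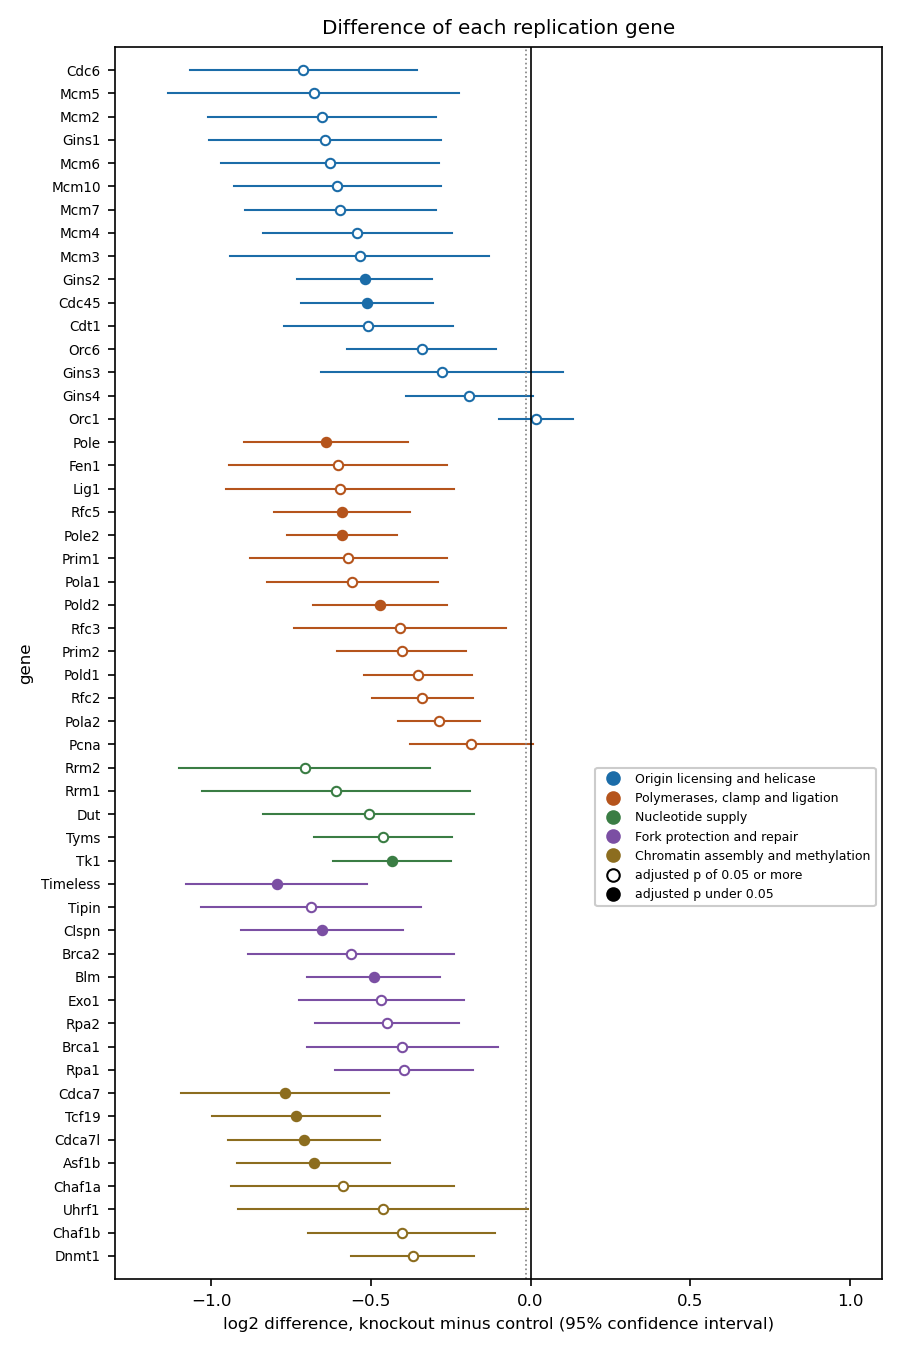
Log2 difference, knockout minus control, of each member (points) with its 95% confidence interval (lines), coloured by role and filled where the adjusted p was under 0.05. The interval lay wholly below 0 except in Gins3, Gins4, Orc1 and Pcna, and the dotted line is the median of all genes at -0.01.

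By role, the ranges of the 3 knockouts and the 6 controls did not overlap in the mean over genes. Licensing and helicase genes stood at -0.23, -0.39 and -0.86 from their control mean in knockout replicates 1, 2 and 3, against -0.14 to 0.11 for single controls. For polymerases, clamp and ligation the values were -0.26, -0.42 and -0.73 in the knockouts, against -0.11 to 0.08 in the controls. For nucleotide supply they were -0.23, -0.45 and -0.95 in the knockouts, against -0.05 to 0.07 in the controls. The order of the knockouts was the same in the remaining roles, with -0.25, -0.54 and -0.85 for fork protection, against -0.14 to 0.08 in the controls, and -0.32, -0.49 and -0.95 for chromatin assembly, against -0.13 to 0.16 in the controls.

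**Figure D4:**
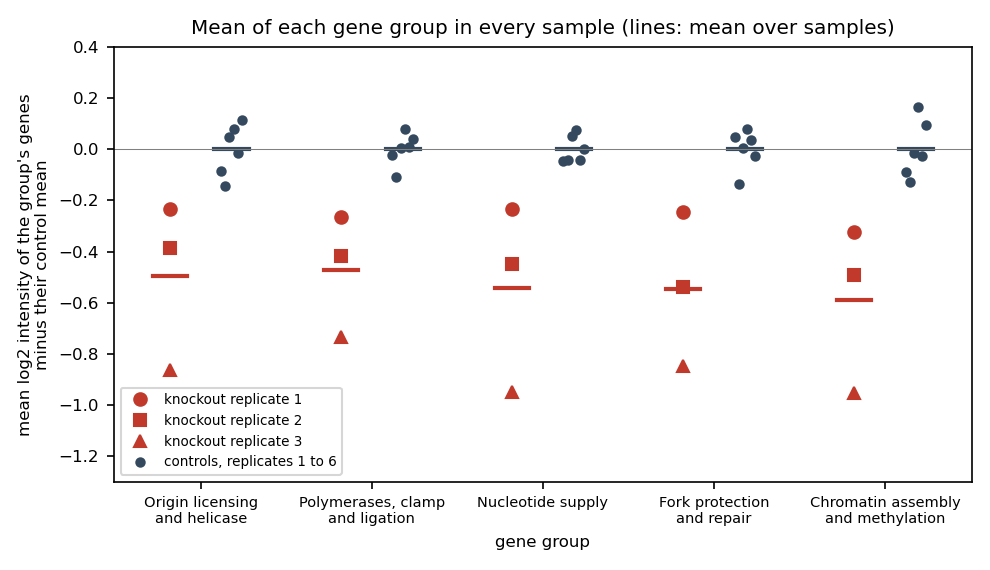
Mean log2 intensity of each role's genes minus their control mean in every sample, with knockouts (red) left of controls (dark) in each role and lines at the mean over samples. In each role the 3 knockouts lay below the 6 controls and replicate 3 was lowest, down to -0.95 in nucleotide supply and chromatin assembly.

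The controls fell into no labelled sets, but 40 of 52 members had a higher mean in control replicates 4 to 6 than in control replicates 1 to 3, against 50.5% of all genes. Against control replicates 1 to 3 alone the median difference was -0.51, and against control replicates 4 to 6 alone it was -0.55. In either smaller fit by limma 0 members passed (40 and 47 members had an unadjusted p under 0.05), where 3 and 20 of all genes did.

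Replication genes outside the list were also mostly lower in the knockouts. Of 66 measured genes in a second list of replication factors, 6 fell and 0 rose: Wdhd1 (-0.50, adjusted p = 0.0165), a fork adaptor of polymerase alpha, the nuclease gene Dna2 (-0.39), Ctps (-0.44), which makes CTP, Cdc7 (-0.49), the kinase that fires origins, Hells, and Atad5 (-0.64), which unloads Pcna. The median was -0.25, and of all genes 0.491% fell. In this list 61 had a negative difference (55.0% of all genes), and in 26 all knockouts lay below all controls (4.88% of all genes). Genes of that list with differences near 0, chosen after their values were seen, included Samhd1 (-0.01), which degrades nucleotides, Rrm2b (-0.02), the reductase subunit of resting cells, and Dck (-0.05), a salvage kinase. Donson differed by 0.22 (adjusted p = 0.18), the highest of the list.

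Mitosis genes had a median difference close to that of the replication genes. Of 20 measured, 5 fell and 0 rose, with a median of -0.55, where 0.491% of all genes fell. The 5 were Ube2c (-0.56), Ccna2 (-0.59), Plk1 (-0.61), Cdc20 (-0.62) and Aurkb (-0.52). Mki67, the common marker of dividing cells, had 10.81, 10.46 and 10.06 in the knockouts, against 10.67 to 11.07 in the controls, and its difference of -0.43 did not pass (adjusted p = 0.19). Without knockout replicate 3 the number that fell was 3, and without knockout replicate 1 it was 16.

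**Figure D5:**
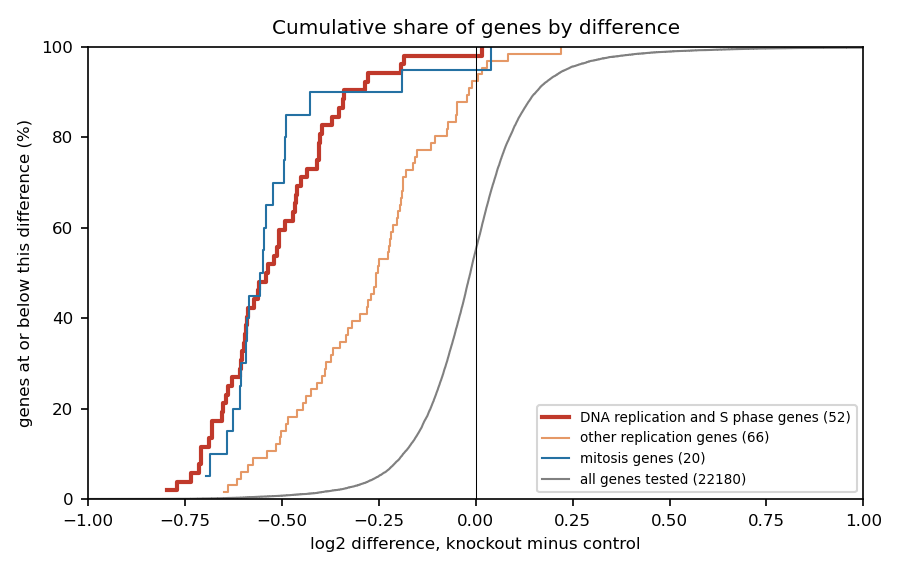
Cumulative share of genes (vertical axis, percent) at or below each log2 difference, knockout minus control (horizontal axis), for the 52 members, 66 other replication genes, 20 mitosis genes and all 22180 genes tested. The median was -0.54 for the members, -0.25 for the other replication genes, -0.55 for mitosis genes and -0.01 for all genes.

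The members that fell lie on 10 chromosomes, and the 52 measured on 15. Promoters of all measured members were searched for E2F motifs. The letters searched, on both strands, were TTTGGCGC, TTTCCCGC, TTTGGCGG and TTTCGCGC, in RefSeq promoters of GRCm38.p6 from 250 bases before to 50 bases after the start. At least 1 was present in 21 of 43 members with a promoter in the table, against 2.70% of all genes in it. Among the members that fell it was in 3 of 12, and among the other members in 18 of 31. The C/EBP motif TTGCNNAA was in 4 of 43 members (9.30%), against 12.2% of all genes. A match describes the letters of this window and no binding was measured.

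The promoters of the 3 members that fell and hold an E2F motif show where it lies, with the motif in capitals and the strand of the gene written 5′ to 3′. The Pole2 stretch (chr12:69228161-69228280, minus strand) and the Clspn stretch (chr4:126556850-126557009, plus strand) end 30 bases after the start, and the Cdca7 stretch (chr2:72476099-72476218, plus strand) ends at the base before it. Pole2 has 1 match just after the start, Clspn has 1 upstream and 1 after the start, and Cdca7 has 1 upstream.
Pole2: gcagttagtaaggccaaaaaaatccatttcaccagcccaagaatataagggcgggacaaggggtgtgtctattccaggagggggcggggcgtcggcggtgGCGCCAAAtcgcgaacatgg
Clspn: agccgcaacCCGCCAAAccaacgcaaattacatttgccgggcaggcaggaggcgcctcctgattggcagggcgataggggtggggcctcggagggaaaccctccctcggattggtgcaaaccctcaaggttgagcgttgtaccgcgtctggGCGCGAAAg
Cdca7: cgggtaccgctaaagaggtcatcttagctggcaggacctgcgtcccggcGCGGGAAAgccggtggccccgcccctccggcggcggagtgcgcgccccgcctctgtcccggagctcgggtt

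Promoters of a pair of members that did not pass are given for contrast and were chosen after their values were seen. Mcm6 (chr1:128359706-128359825, minus strand), with a difference of -0.63, has 3 matches, of which the first 2 overlap. Orc1 (chr4:108579374-108579453, plus strand), the member with the smallest difference, at 0.02, also holds a match. The Orc1 probe read below the median gene in every sample and no detection call was used, so a change in this gene could have been missed. Whether the motif goes with the differences was not tested.
Mcm6: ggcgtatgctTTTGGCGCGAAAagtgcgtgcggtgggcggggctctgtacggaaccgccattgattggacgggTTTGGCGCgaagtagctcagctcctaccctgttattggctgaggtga
Orc1: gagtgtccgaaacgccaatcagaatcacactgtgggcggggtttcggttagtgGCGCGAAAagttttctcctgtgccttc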

How the data were processed

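RNA of 3 knockout and 6 control samples of sorted splenic dendritic cells was read on 9 arrays. The authors deposited 1 log2 intensity for each probe and sample. Per the submitters' processing notes these come from RMA, with version, settings and build not given in the sources used. That the logarithm has base 2 was judged from the range of the values. RMA equalizes the arrays' distributions, which removes a shift shared by most genes, and understates changes of dim probes. In the table of 41801 rows, 34468 were complete. The platform annotation gave 1 symbol to 23521 of these, several to 1814 and none to 9133. Probes with 1 symbol were kept without a signal filter, and the brightest by mean stood for its gene, which left 22180 genes.

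The test was limma 3.58.1 in R 4.3.3 (two-sided moderated statistics from lmFit and eBayes), knockout minus control without covariates, adjusted by Benjamini-Hochberg over all genes at 0.05. The script was tested on simulated data. Members given with all values were those past 0.05 and, in each role, those with the largest difference, the smallest difference and the brightest probe. The members and lists were chosen with earlier results of these data known. Promoters came from RefSeq (GRCm38.p6), where 43 of 52 members matched by symbol. Replicate numbers recur in both groups but same-numbered samples did not deviate together (correlations -0.14, -0.10 and 0.05 for numbers 1 to 3), so they were not used as pairs. The alternatives were centring, a second quantile normalization, trend and robust eBayes, array weights, a replicate block, each set of 3 controls, a signal filter, the mean of a gene's probes, and each sample left out. The number of arrays limits the precision. Tables were made with Python 3.11.15, pandas 2.3.3, numpy 2.4.6 and matplotlib 3.10.9.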

Additional observations from a re-analysis of the deposited data

Results flagged for a closer look

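In 3 of 31 sets of 6 control values examined, 1 sample lay far from the rest, where chance gives about 1 in 20. Orc1 had 5.58 in control replicate 5, against 5.45 to 5.50 in the others, on a probe below the median gene. Several of its controls held the identical value 5.49678, so the 1 in 20 does not hold for this gene. Rrm2 had 8.95 in control replicate 4, against 8.72 to 8.76 in the others. Averaged over the mitosis genes, control replicate 4 stood 0.18 above the control mean, and the others stood at -0.10 to 0.01.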

How the results depend on the processing

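The median difference over the members kept its sign under every alternative run, between -0.55 and -0.46 in the fits on all samples or on each set of 3 controls and between -0.67 and -0.36 with 1 sample left out. No alternative run gave a member that rose. The number of members that fell depended on the setting. It was 14 in the reported fit, 12 with centred arrays, 16 with a second quantile normalization, 15 with trend and robust eBayes, 12 with the mean of a gene's probes, 32 with array weights, 36 among genes above the median level (fewer genes tested), 0 against control replicates 1 to 3 or 4 to 6 alone (fewer samples), and 1 to 32 with 1 sample left out. Of all 22180 genes, 109 fell in the reported fit, 75 with centred arrays and 121 with a second quantile normalization. With trend and robust eBayes 135 fell, and with the mean of a gene's probes 100. Among all genes, 201 passed in the reported fit, against 652 with array weights, 537 above the median level, 3 and 20 against control replicates 1 to 3 and 4 to 6 alone, and 33 to 332 with 1 sample left out. Of the other replication genes 6 fell in the reported fit, against 14 with array weights, 16 above the median level, 0 against either set of 3 controls, and 0 to 19 with 1 sample left out. With the replicate number as a block, which the labels and the samples' deviations do not support as a pairing, 2 genes passed by limma, 0 members (40 at an unadjusted p under 0.05) and 0 other replication genes fell, and Cebpb differed by -1.47 (adjusted p = 0.14). The difference of Orc1 was -0.0043 against control replicates 4 to 6 alone and -0.0062 to 0.031 with 1 sample left out, the lowest without knockout replicate 2. Over the 22 members given with all values, 248 refits kept the direction and the side of the threshold, 133 lost a call, 12 gained one and 2 reversed. The causes of these changes were not tested. Signal over background was not measured, so dim probes such as that of Orc1 carry no detection limit.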
